A study of Mus musculus with 16 samples.

Results

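The genes described here are 10 genes of the NRF2 and glutathione defence of mouse cells: Nfe2l2, Keap1, Sqstm1, Slc7a11, Gclc, Gclm, Gsta4, Txnrd1, Srxn1 and Hmox1. Every probe set whose array annotation names only 1 of these genes was taken, which gave 21 of the 45037 probe sets measured in all samples, for 10 of 18193 genes so named. A probe set is the group of short probes that reads 1 transcript on an Affymetrix array. Of the 21, 14 were bright enough to be tested, for 9 of the 10 genes; both probe sets of Slc7a11 were below the brightness limit.

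RNA came from mouse blastocysts, preimplantation embryos with an outer trophectoderm and an inner cell mass, in 4 groups of 3 samples. The control group carries the label WT with no treatment named, and the others were treated with SB203580 at 20 µM, SP600125 at 25 µM or U0126 at 20 µM. SB203580 is used to inhibit p38 kinases, SP600125 to inhibit JNK, and U0126 to inhibit MEK, the kinase that activates ERK. The strain, the length of treatment, the number of embryos in a sample and any solvent given to the controls are not stated in the labels. Replicate 1 of each group was read on a 430A and a 430B array after small sample labelling, and replicates 2 and 3 on 430 2.0 arrays after two-cycle labelling. Signals on the older and newer arrays are on different footings, so every comparison was made within array type. Whether replicates came from separate cultures is not in the labels; a p-value here reflects the spread among the samples, and that spread may be technical.

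NRF2, the product of Nfe2l2, is a transcription factor that is held low by KEAP1, an adaptor that passes it to a ubiquitin ligase. Oxidants and electrophiles modify KEAP1, and the autophagy receptor p62, made from Sqstm1, can bind it; in both cases NRF2 accumulates and turns on genes that carry an antioxidant response element. Those genes import cystine, build and use glutathione, recycle thioredoxin and break down haem, and early embryos in culture are known to be sensitive to oxidative stress.

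RefSeq promoter windows of GRCm38.p6, each of 250 bases before and 50 after an annotated start, were on hand for 7 of the 10 genes, in 9 windows; Hmox1, Gclc and Gsta4 had none in the table used. They were searched on both strands for TGACNNNGC, the core of the antioxidant response element, for TGAGTCA, the motif of AP-1 factors that the same element often holds, and for TGATGCAA, a motif of the amino acid response. The TGACNNNGC core can overlap TGAGTCA read on the other strand, as TGACTCA. The core lay before the start in Nfe2l2, Gclm and 1 of 3 windows of Txnrd1. Of all 32851 windows, 10.2% held it before the start and 12.4% held it somewhere. Srxn1 held TGAGTCA at 2 places before the start, where 4.46% of all windows held it, and a TGACNNNGC match after the start. The TGAGTCA nearer the start is followed by GC. A core with TGAG in place of TGAC was not searched for, so its absence before the start cannot be read from this search. Slc7a11 held TGATGCAA at 2 places before the start, once on each strand, where 0.79% of all windows had a match. The windows of Sqstm1 and Keap1 held no match to the 3 motifs, which says only that these letters are not in those windows. The stretches below show where the matches lie, with the match in capitals, written 5' to 3' on the strand of the gene, and the 80 bases before the start of Sqstm1, the gene that rose:
Nfe2l2, chr2:75704880-75704913, minus strand: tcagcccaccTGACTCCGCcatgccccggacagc
Gclm, chr3:122245408-122245446, plus strand: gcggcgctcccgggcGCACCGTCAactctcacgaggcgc
Txnrd1, chr10:82859099-82859137, plus strand: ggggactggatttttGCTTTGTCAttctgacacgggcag
Srxn1, chr2:152105407-152105500, plus strand: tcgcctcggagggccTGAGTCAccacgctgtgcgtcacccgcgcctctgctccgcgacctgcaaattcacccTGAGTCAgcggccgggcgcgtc
Slc7a11, chr3:50443638-50443694, minus strand: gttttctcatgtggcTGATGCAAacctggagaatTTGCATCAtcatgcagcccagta
Sqstm1, chr11:50210821-50210900, minus strand: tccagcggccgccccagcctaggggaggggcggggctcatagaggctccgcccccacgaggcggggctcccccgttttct

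The authors had scaled every array to a trimmed mean of 500. On the 430 2.0 arrays the median signal was 61.1 to 68.9 in the control, SB203580 and SP600125 samples, and 77.7 and 83.0 with U0126. Actin 3' signal divided by its 5' signal, which rises with shorter labelled RNA, was 1.58 to 1.75 on these arrays; the 430A ratios were 2.47 in control, 2.81 in SB203580, 3.66 in SP600125 and 1.62 in U0126 samples. Of the blastocyst markers, Cdx2 gave 3740 to 5692 and Pou5f1 3349 to 4152 on the 430 2.0 arrays. Others were dimmer there, such as Klf2 at 272.5 to 606.5, Krt19 at 180.8 to 652.9 and Hand1 at 16.5 to 122.3. Of 18 primitive endoderm markers tested, 11 passed as lower with SP600125, 2 with U0126 and 1 with SB203580. Their summed signal on the 430 2.0 arrays was 62472 and 66636 in the controls and lower with every inhibitor, where SB203580 samples gave 54482 and 54602, SP600125 samples 47952 and 45957, and U0126 samples 43539 and 54842. On the older arrays it was 37721 in the control and 27216 to 27343 in the treated samples. Of the 18 markers, 16 had negative log2 changes with SB203580, 16 with SP600125 and 18 with U0126. Of 10 inner cell mass and epiblast markers, 2 passed as higher with U0126, and their summed signal was 14641 in the control and 20338 with U0126 on the older arrays, and 41971 and 45835 against 47479 and 44785 on the newer. Of 15 trophectoderm markers, 2 passed as higher and 1 as lower with U0126, 1 as higher and 1 as lower with SP600125, and 1 as higher with SB203580. With SB203580, 12 of the 15 had negative log2 changes and 3 positive ones. Their summed signal on the older arrays was 54605 in the control and 47424 with SB203580. On the newer arrays it was 121727 and 127785 in the controls and 109415 and 113841 with SB203580. In whole embryos, fewer cells of a type and less RNA per cell cannot be told apart.

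With SP600125, Sqstm1 rose and Gsta4, a glutathione transferase gene, fell. These were the 2 of 14 tested probe sets that passed limma's moderated test at an adjusted p under 0.05. With SB203580 and with U0126, 0 of 14 passed in limma; at an unadjusted p under 0.05 there were 2 with SB203580 (Sqstm1 and Gsta4), 5 with SP600125 and 1 with U0126 (Hmox1). Over all 27022 tested probe sets, 0.389% passed with SB203580, 0.592% with SP600125 and 0.448% with U0126. An unadjusted p under 0.05 was found for 9.36%, 8.52% and 12.01% of all tested probe sets in the same order. The comparisons share the control samples, so they are not independent of each other.

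Sqstm1 makes p62, which carries ubiquitin-tagged cargo to autophagosomes and binds KEAP1. On the older arrays its signal (1450957_a_at) was 1315 in control, 1669 in SB203580, 1909 in SP600125 and 1566 in U0126 samples. On the newer arrays it was 2039 and 1941 in control, 2641 and 2563 in SB203580, 2703 and 3124 in SP600125, and 2428 and 2172 in U0126 samples. Every treated sample lay above every control of its array type, for all 3 inhibitors. The log2 change was 0.54 ± 0.12 (SE, n = 3) with SP600125 (limma, adjusted p = 0.0472), with replicate ratios of 1.45, 1.36 and 1.57 to the control mean of the same array type. It was 0.37 ± 0.12 with SB203580 (limma, adjusted p = 0.254) and 0.22 ± 0.12 with U0126 (limma, adjusted p = 0.480), neither of which passed; with each array centred on its median the U0126 value was 0.07. Ordered by level, SP600125 came first, then SB203580, U0126 and control, and the samples of neighbouring groups did not overlap within array type. The steps were small and none passed in limma: the adjusted p was 0.691 for SP600125 over SB203580, 0.633 for SB203580 over U0126 and 0.480 for U0126 over control. The SP600125 rise stood close to the threshold. It passed under 6 of 22 alternative settings, with the log2 change between 0.48 and 0.59 in all 22, and leaving out any 1 control, SB203580 or SP600125 sample, or U0126 replicate 2, ended the call with adjusted p from 0.0519 to 0.269 in limma.

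A further Sqstm1 probe set, 1444021_at, was too dim to test, at 9.6 to 66.5 on the newer arrays. Its signal on the 430B arrays was 211 to 239 in the 4 groups.

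Nfe2l2 itself was read by 1416543_at at 939 in control, 1194 in SB203580, 1509 in SP600125 and 1187 in U0126 samples on the older arrays. The newer arrays gave 2245 and 2115 in control, 2037 and 1755 in SB203580, 2428 and 2887 in SP600125, and 1599 and 2399 in U0126 samples. The 3 SP600125 samples lay above every control of their array type, while the array types disagreed for SB203580, which was above the control on 430A and below both controls on 430 2.0. U0126 was above its control on 430A and straddled the controls on 430 2.0. The log2 change with SP600125 was 0.41 ± 0.16 and did not pass (limma, adjusted p = 0.469). It was -0.02 ± 0.16 with SB203580 and 0.01 ± 0.16 with U0126. The second probe set, 1457117_at, was dim, at 9.2 to 67.8 on the newer arrays, and was not tested.

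Keap1 makes the adaptor that holds NRF2 low. The brighter of its probe sets, 1450746_at, gave 870 in control, 829 in SB203580, 882 in SP600125 and 1008 in U0126 samples on the older arrays. Replicates 2 and 3, on the newer arrays, gave 954 and 884 in control, 700 and 786 in SB203580, 1160 and 871 in SP600125, and 768 and 762 in U0126 samples. The SB203580 samples all lay below the controls, and the log2 change of -0.23 ± 0.17 did not pass (limma, adjusted p = 0.761). The values with SP600125, 0.09 ± 0.17, and U0126, -0.10 ± 0.17, were smaller still. The dim 1450747_at ranged from 12.9 to 134.7 on the newer arrays, with standard errors of 0.53, too wide to show a change of the sizes seen in the other genes.

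**Figure D1:**
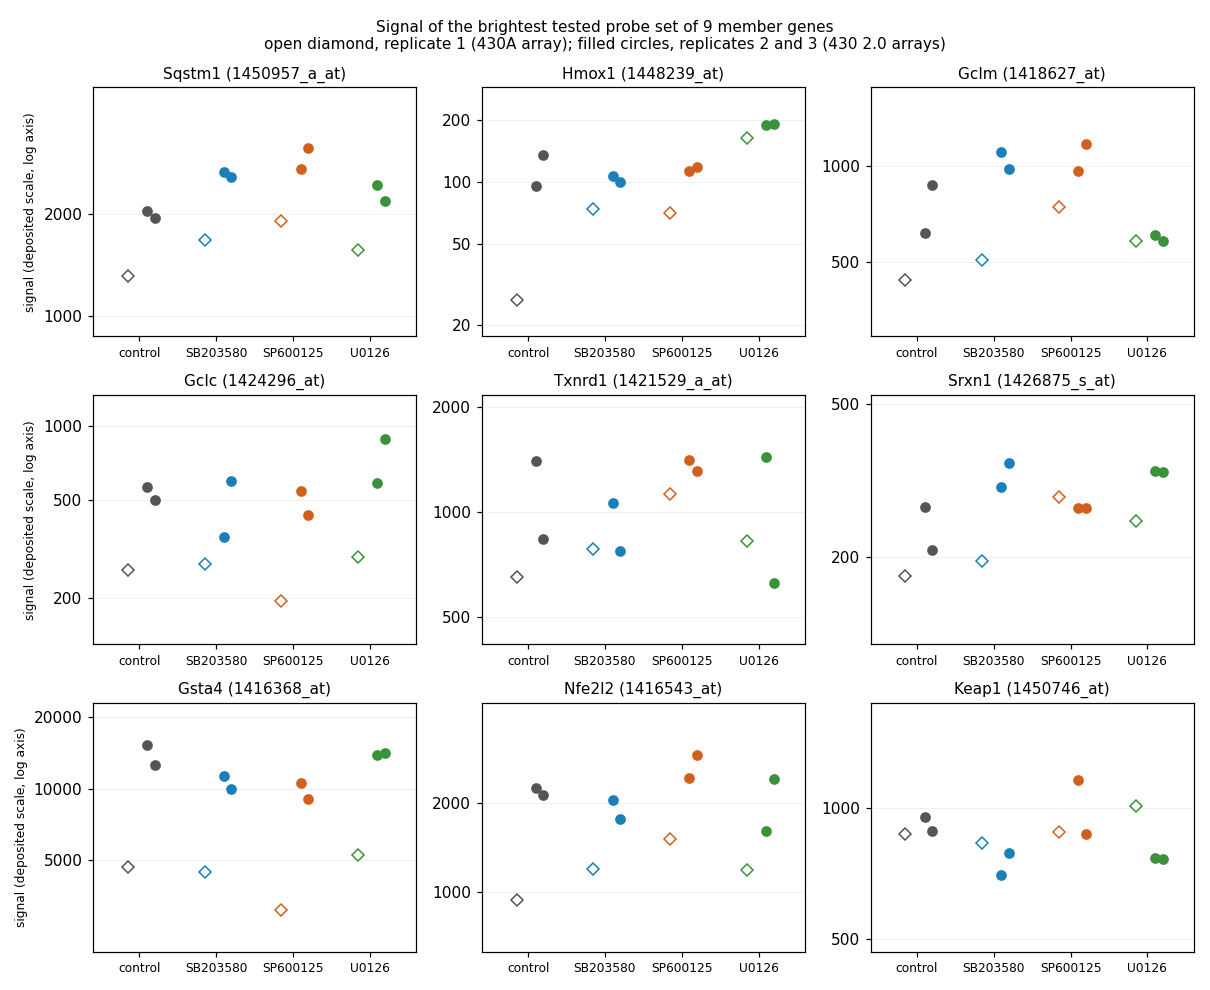
Signal on the deposited scale (log axis) of the brightest tested probe set of 9 defence genes in the 12 samples, with open diamonds for replicate 1 on 430A arrays and filled circles for replicates 2 and 3 on 430 2.0 arrays. For Sqstm1 every treated sample lies above the controls of its array type (1315 on 430A, 1941 and 2039 on 430 2.0), and for Gsta4 the SP600125 samples (3102, 10518 and 9072) lie below every control of theirs.

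Glutathione is built from cysteine, glutamate and glycine. Cystine enters through the transporter encoded by Slc7a11, whose probe sets gave 2.1 to 57.4 (1420413_at) and 3.2 to 38.0 (1443536_at) on the newer arrays. They were not tested, and no change of this gene could be read at this signal. Its partner in the transporter, Slc3a2, was tested and had log2 changes of -0.11 ± 0.14 with SB203580, -0.07 ± 0.14 with SP600125 and 0.15 ± 0.14 with U0126; it is named here outside the rule for named genes, after its values were seen.

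Glutamate-cysteine ligase, the rate-limiting enzyme of glutathione synthesis, has a catalytic subunit, Gclc, and a modifier subunit, Gclm. The brighter Gclm probe set, 1418627_at, gave 442 in control, 507 in SB203580, 747 in SP600125 and 584 in U0126 samples on the older arrays. On the newer arrays it gave 618 and 872 in control, 1111 and 978 in SB203580, 964 and 1175 in SP600125, and 609 and 584 in U0126 samples. SB203580 and SP600125 samples lay above every control of their array type; with U0126 the newer-array samples lay below both controls and the older-array sample above its control. The log2 changes were 0.40 ± 0.21 with SB203580, 0.60 ± 0.21 with SP600125 and -0.06 ± 0.21 with U0126, and none passed (limma, adjusted p = 0.595, 0.352 and 0.942).

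The second Gclm probe set, 1439050_at, had 0.81 ± 0.35 with SP600125, 0.58 ± 0.35 with U0126 and -0.10 ± 0.35 with SB203580, none of them past the threshold (limma, adjusted p = 0.530, 0.534 and 0.961). Its ratios to control with SP600125 were 1.72, 1.84 and 1.74 in the 3 replicates. The pair of probe sets thus had the same sign with SP600125 and opposite signs with SB203580 and with U0126.

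Gclc showed no common direction. Its probe set 1424296_at gave 261 in control, 274 in SB203580, 195 in SP600125 and 294 in U0126 samples on the older arrays. The newer arrays gave 569 and 499 in control, 355 and 598 in SB203580, 545 and 435 in SP600125, and 586 and 892 in U0126 samples. Only the U0126 samples stood clear of the controls, all above them, with a log2 change of 0.34 ± 0.24 that did not pass (limma, adjusted p = 0.617). Its other probe set, 1455959_s_at, had 0.49 ± 0.31 with U0126, where 467 and 712 on the newer arrays lay above the controls (309 and 366) and 187 on the older lay below its control (195).

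Gsta4 encodes a glutathione transferase that conjugates hydroxynonenal, a product of lipid peroxidation. Its only probe set, 1416368_at, gave 4694 in control, 4465 in SB203580, 3102 in SP600125 and 5277 in U0126 samples on the older arrays. Replicates 2 and 3, on the newer arrays, gave 15206 and 12587 in control, 11324 and 9969 in SB203580, 10518 and 9072 in SP600125, and 13898 and 14168 in U0126 samples. The SB203580 and SP600125 samples all lay below the controls, while the U0126 samples lay between the controls on the newer arrays and above the control on the older. With SP600125 the log2 change was -0.53 ± 0.11 (limma, adjusted p = 0.0404), with ratios of 0.661, 0.757 and 0.653. With SB203580 it was -0.28 ± 0.11 and did not pass (limma, adjusted p = 0.421), and with U0126 it was 0.07 ± 0.11 (limma, adjusted p = 0.856), or -0.08 with each array centred on its median. The fitted order was U0126, control, SB203580, SP600125, and no neighbours in it passed in limma (adjusted p = 0.856, 0.421 and 0.427). The unadjusted limma p was 0.0256 for SB203580 against control and 0.0380 for SB203580 against SP600125. Gsta4 was lower with SP600125 than with U0126 by log2 -0.60 ± 0.11 (limma, adjusted p = 0.00753).

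The fall against control passed under 9 of 22 alternative settings, with log2 changes between -0.62 and -0.44. It was lost in limma without control replicate 1, 2 or 3 (adjusted p = 0.0966, 0.208 and 0.0750), SB203580 replicate 2 (0.0676), SP600125 replicate 1 or 3 (0.255 and 0.208) or U0126 replicate 2 (0.0545). The difference from U0126 passed under 18 of 22, and not without SP600125 replicate 1 (limma, adjusted p = 0.0566). SP600125 replicate 1 is also the sample with the highest 3' to 5' actin ratio, though its Gapdh ratio on 430A, 3.46, was below the control's 4.03. Primitive endoderm markers were lower in the SP600125 samples, as in those of the other inhibitors, and the part of these in the result was not tested. On the 430 2.0 arrays alone, with Gapdh ratios of 2.84 to 4.80, the log2 change was -0.50 with SP600125 and did not pass (limma, adjusted p = 0.190).

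**Figure D2:**
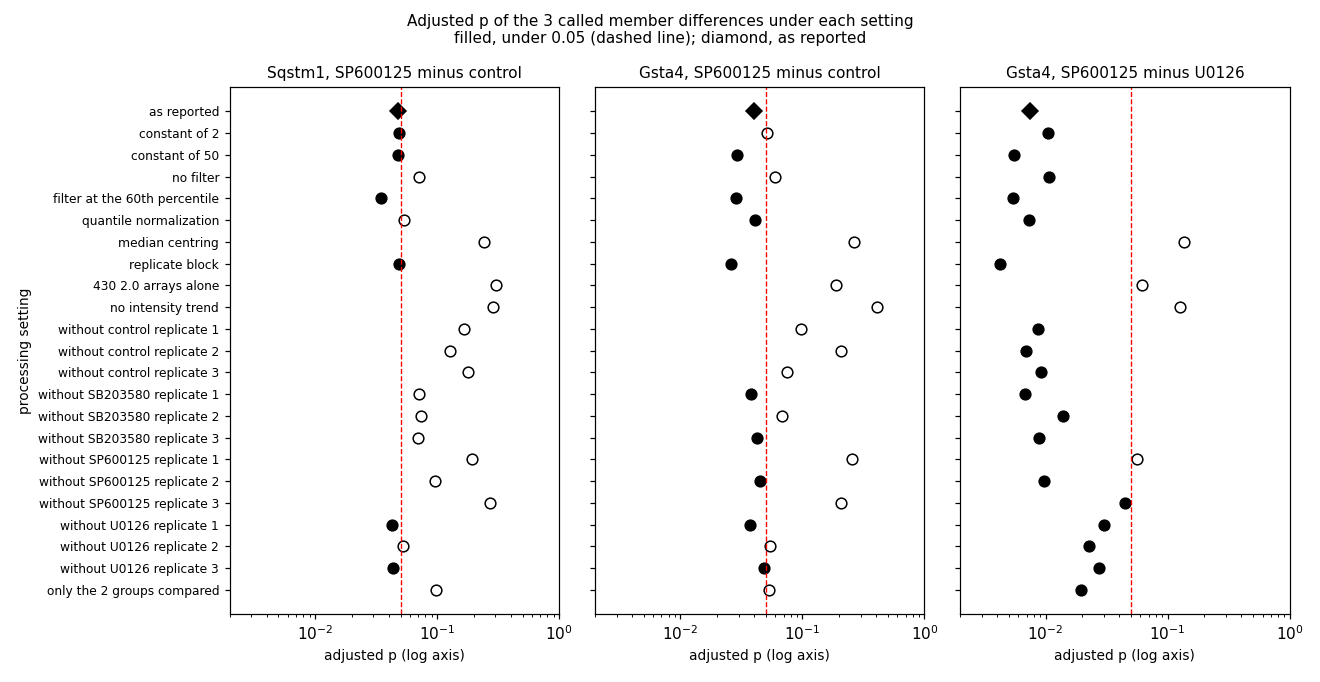
Adjusted p (log axis) of the 3 called differences of the defence genes under each of the settings named on the left, filled where under 0.05 (dashed line), with a diamond for the value as reported. Sqstm1 and Gsta4 against control lie on both sides of the line, filled in 6 and 9 of 22 alternatives, and Gsta4 against U0126 is filled in 18 of 22.

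Thioredoxin reductase 1, encoded by Txnrd1, returns oxidised thioredoxin to its active form, and sulfiredoxin 1, encoded by Srxn1, repairs overoxidised peroxiredoxins. Txnrd1 (1421529_a_at) gave 651 in control, 784 in SB203580, 1125 in SP600125 and 824 in U0126 samples on the older arrays. On the newer arrays it gave 1403 and 836 in control, 1064 and 771 in SB203580, 1408 and 1315 in SP600125, and 1444 and 626 in U0126 samples. The controls themselves spread widely. With SP600125 all 3 ratios to the control mean were above 1, at 1.73, 1.26 and 1.18, but the log2 change of 0.48 ± 0.26 did not pass (limma, adjusted p = 0.672). The dimmer 1424486_a_at had standard errors of 0.57 and no consistent sign within any group, and 1424487_x_at, listed at 2.7 to 73.9 on the newer arrays, was not tested.

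Srxn1 (1426875_s_at) gave 178 in control, 195 in SB203580, 286 in SP600125 and 247 in U0126 samples on the older arrays. The newer arrays gave 269 and 208 in control, 303 and 351 in SB203580, 267 and 268 in SP600125, and 333 and 332 in U0126 samples. The SB203580 and U0126 samples lay above every control of their array type, and with U0126 the 3 ratios were nearly equal at 1.39, 1.40 and 1.39. The log2 changes were 0.34 ± 0.25 with SB203580, 0.33 ± 0.25 with SP600125 and 0.46 ± 0.25 with U0126, none past the threshold (limma, adjusted p = 0.748, 0.821 and 0.484). Of its other probe sets, 1451680_at had 0.34 ± 0.39 with U0126 and 0.22 ± 0.39 with SP600125, with every sample above its controls in both, and 1425351_at and 1419942_at were not tested.

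Haem oxygenase 1, the product of Hmox1, breaks haem into biliverdin, carbon monoxide and iron. Its probe set, 1448239_at, gave 26.6 in control, 73.8 in SB203580, 70.8 in SP600125 and 165 in U0126 samples on the older arrays. Replicates 2 and 3, on the newer arrays, gave 96.0 and 136 in control, 108 and 100 in SB203580, 113 and 119 in SP600125, and 190 and 193 in U0126 samples. The 3 U0126 samples were the highest of their array types. The log2 change with U0126 was 1.18 ± 0.38, the largest estimate of any tested probe set of these genes, and it did not pass (limma, adjusted p = 0.1997). The ratio to control was 6.195 in replicate 1 and 1.64 and 1.66 in replicates 2 and 3. Without control replicate 1 the log2 change was 0.75 (limma, adjusted p = 0.481), and on the 430 2.0 arrays alone it was 0.68. With SB203580 and SP600125 the newer-array samples overlapped the controls, and the values of 0.29 ± 0.38 and 0.37 ± 0.38 came from the older-array ratios of 2.77 and 2.66.

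**Figure D3:**
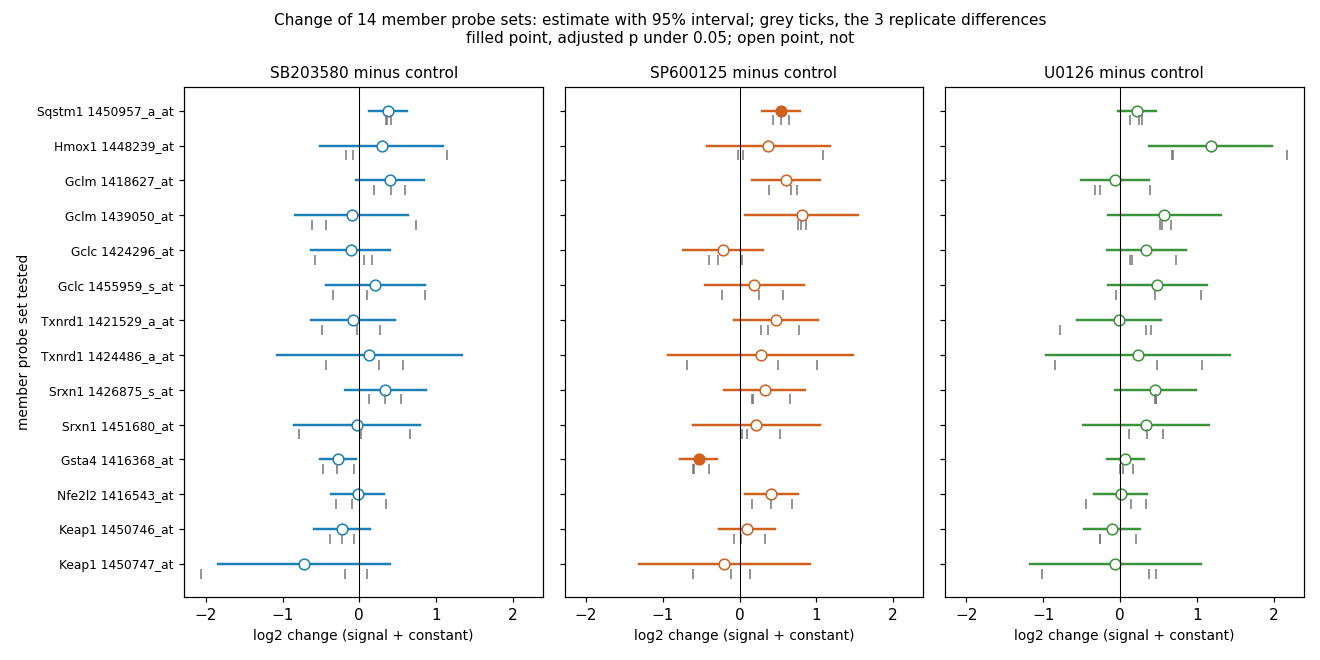
Log2 change against control of the 14 tested probe sets (points, with 95% intervals of the model; filled where the adjusted p was under 0.05), with grey ticks for the differences of the 3 replicates from the control mean of the same array type. Filled points are Sqstm1 (0.54) and Gsta4 (-0.53) with SP600125, and the U0126 value of Hmox1 (1.18) is open, with 1 replicate far to the right of the others.

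Seen over the 14 tested probe sets, SP600125 samples lay above every control of their array type for 5 (Sqstm1, both of Gclm, 1 of Srxn1 and Nfe2l2), or 35.7%, and below for 1 (Gsta4), or 7.14%. Among all tested probe sets these shares were 11% and 11.5%. With U0126 the counts were 6 above (42.9%) and 0 below, against 14% and 9.14% of all tested. With SB203580 they were 3 above (21.4%) and 2 below (14.3%), against 11.6% and 11.9%. Probe sets of 1 gene share a transcript, so these counts are a description. With the brightest probe set per gene, the median log2 change of the 9 genes was 0.37 with SP600125, against 0.00 over all 12614 genes tested, 0.07 with U0126 against 0.05, and -0.02 with SB203580 against 0.01. The replicate medians with SP600125 were 0.65, 0.16 and 0.17, the first of them from the older arrays.

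Between inhibitors, Gsta4 in SP600125 against U0126 was the 1 probe set of 14 that passed, where 2.93% of all tested probe sets did. In limma 0 of 14 passed between SB203580 and SP600125 (0.788% of all) and 0 of 14 between SB203580 and U0126 (1.37% of all), with 4 and 3 of 14 at an unadjusted p under 0.05. That was met by 10.6% and 13.3% of all tested probe sets, and between SP600125 and U0126 by 6 of 14 against 17.4%. Gclm (1418627_at) stood higher with SP600125 than with U0126 by log2 0.66 ± 0.21 and did not pass (limma, adjusted p = 0.102). Of 22 alternatives, only 1 passed, that without U0126 replicate 1, at 0.90 (limma, adjusted p = 0.0366). Among the others the adjusted p in limma reached 0.272. The second Gclm probe set, 1439050_at, had 0.23 ± 0.35 here and did not pass (limma, adjusted p = 0.790). Sqstm1 was higher with SP600125 than with U0126 by 0.32 ± 0.12, which did not pass (limma, adjusted p = 0.161). For Hmox1 the SP600125 and U0126 groups differed by -0.81 ± 0.38, which did not pass (limma, adjusted p = 0.283).

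The wider pathway was followed through 7 lists. Of their 114 tested genes, 0 passed with SB203580 in limma, where 26 had an unadjusted p under 0.05 on the brightest probe set; the share among all genes tested was 11.4%. With SP600125, 2 of 26 tested genes of glutathione synthesis, recycling and use fell (Cbs and Chac1) and 1 of 14 haem and iron genes rose (Slc40a1). With U0126, 1 of 24 other NRF2 targets rose (Cbr3), 1 of 26 glutathione genes rose (Gpx4) and 1 of 5 aryl hydrocarbon receptor targets rose (Cyp1a1). None of 17 NRF2 regulators and partners, 17 thioredoxin, peroxiredoxin and superoxide dismutase genes or 17 autophagy receptors and adaptors passed against control in limma; at an unadjusted p under 0.05 there were 2, 2 and 5 of them with SP600125 and 0, 2 and 6 with U0126, where 10.2% and 13.4% of all genes tested met it. Over all 12614 genes tested, 51 rose and 69 fell with SP600125, 38 rose and 62 fell with U0126, and 21 rose and 67 fell with SB203580. The median changes of the 24 other NRF2 targets were 0.11 with SB203580, 0.04 with SP600125 and 0.11 with U0126, and those of the 26 glutathione genes 0.02, -0.07 and 0.16. For the 5 aryl hydrocarbon receptor targets they were -0.32, -0.05 and 2.27, the last from 3 positive and 2 negative changes. Nqo1, a widely used NRF2 target named here outside the rule after its values were seen, had -0.32 ± 0.59, -0.25 ± 0.59 and -0.27 ± 0.59 in the same order, errors too wide to show a change.

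Cbs, the first enzyme of the route from homocysteine to cysteine, fell with SP600125 on 1423844_s_at, by log2 -1.10 ± 0.15 (limma, adjusted p = 0.00156). Its signal on the older arrays was 1293 in control, 891 in SB203580, 646 in SP600125 and 1368 in U0126 samples. On the newer arrays it was 1990 and 1995 in control, 1292 and 1319 in SB203580, 1044 and 746 in SP600125, and 2114 and 1854 in U0126 samples. The SP600125 samples were the lowest of each array type, and the call held when any 1 of the 12 samples was left out; of 22 alternatives only a fit with no intensity trend ended it (limma, adjusted p = 0.0872). A second Cbs probe set, 1425623_a_at, had -0.65 ± 0.25 and did not pass (limma, adjusted p = 0.450).

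Chac1, whose enzyme splits glutathione, fell with SP600125 by -1.48 ± 0.27 (limma, adjusted p = 0.0161). Its signal was 488 in the control and 191 with SP600125 on the older arrays, and 597 and 623 against 194 and 198 on the newer. Samples of both other inhibitors also lay below the controls, at 238, 415 and 398 with SB203580 and 219, 284 and 591 with U0126, where the changes of -0.71 ± 0.27 and -0.74 ± 0.27 did not pass. The SP600125 call held under 15 of 22 alternatives and was lost in limma without any 1 control sample or without SP600125 replicate 2 or 3, with adjusted p from 0.0583 to 0.101. Slc40a1, the iron exporter ferroportin, rose with SP600125 by 0.91 ± 0.17 on 1417061_at (limma, adjusted p = 0.0216). It gave 637 in the control and 891 with SP600125 on the older arrays, and 1452 and 1244 against 2886 and 3006 on the newer. The call held under 16 of 22 alternatives. Without control replicate 2 or 3, or SP600125 replicate 2 or 3, it did not pass, with adjusted p from 0.0788 to 0.156 in limma. The other Slc40a1 probe set, 1448566_at, did not pass with SP600125 against control.

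The blood and immune marker list, a check for other cells, also stood higher with SP600125: its summed signal was 1049 and 1155 in the newer-array controls and 2091 and 2155 with SP600125, and 1037 and 1326 on the older arrays. Of its 11 measured genes 4 were tested, all 4 had positive changes and 1, Laptm5, passed as higher. Laptm5 gave 697 and 661 in the newer-array controls, the larger part of the sum there, and at most 1605 on the newer arrays. The other tested genes reached at most 224 (Cd68), 219 (Csf1r) and 96.9 (Lyz2) on them. Ptprc, which marks leukocytes, was too dim to test, at 11.8 to 85.4 on the newer arrays. With U0126 the summed signal of this list was 1083 and 1491 on the newer arrays and 774 on the older. Cumulus and granulosa cell markers (3 of 9 tested) and uterine and oviduct markers (4 of 9) were checked as well. None of those passed against control in limma. Their sums with SP600125 on the newer arrays were 356 and 577 (controls 376 and 443), and 1669 and 1713 (controls 2083 and 2066). The part of these markers and of the lower primitive endoderm markers in the SP600125 results was not tested.

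Gpx4, the glutathione peroxidase that reduces lipid peroxides, rose with U0126 on both of its called probe sets, by 0.69 ± 0.12 (1451695_a_at) and 0.52 ± 0.09 (1456193_x_at), with adjusted p of 0.0148 and 0.0108 in limma. On 1451695_a_at the older-array signal was 2431 in the control and 5231 with U0126, and the newer arrays gave 11354 and 11774 against 15408 and 17013. Every U0126 sample lay above the controls. The first call was lost in limma without control replicate 1 or U0126 replicate 1 or 3 (adjusted p from 0.0638 to 0.0819), and the second without control replicate 1 (adjusted p = 0.0601). The calls held under 15 and 17 of 22 alternatives. Both were lost on the 430 2.0 arrays alone (log2 0.49 and 0.45; limma, adjusted p = 0.115 and 0.0886), with no intensity trend, with only the 2 groups fitted, and with each array centred on its median, a scaling that lowered the median of all probe sets with U0126 from 0.06 to -0.11.

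Cbr3, a carbonyl reductase gene, rose with U0126 by 1.19 ± 0.23 (limma, adjusted p = 0.0324). It gave 274 in the control and 536 with U0126 on the older arrays, and 621 and 397 against 1010 and 1549 on the newer. The call held under 11 of 22 alternatives and was lost in limma without any 1 control or U0126 sample or without SB203580 replicate 3, with adjusted p from 0.0531 to 0.134. Cyp1a1, a cytochrome P450 gene turned on through the aryl hydrocarbon receptor, which shares targets with NRF2, rose with U0126 by 4.46 ± 0.62 (limma, adjusted p = 0.00402). Its signal was 122 in the control and 963 with U0126 on the older arrays, and 30.9 and 11.4 against 1385 and 1079 on the newer; control replicate 3 is below the constant of 12.6 added before the log. The log2 change lay between 3.64 and 5.26 over the alternatives. The call held when any 1 of the 12 samples was left out and was lost with no intensity trend (limma, adjusted p = 0.131). SB203580 replicate 1 read 706, against 50 and 30.4 in the other SB203580 samples. The part of the markers of cell types that moved with U0126 in these results was not tested.

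**Figure D4:**
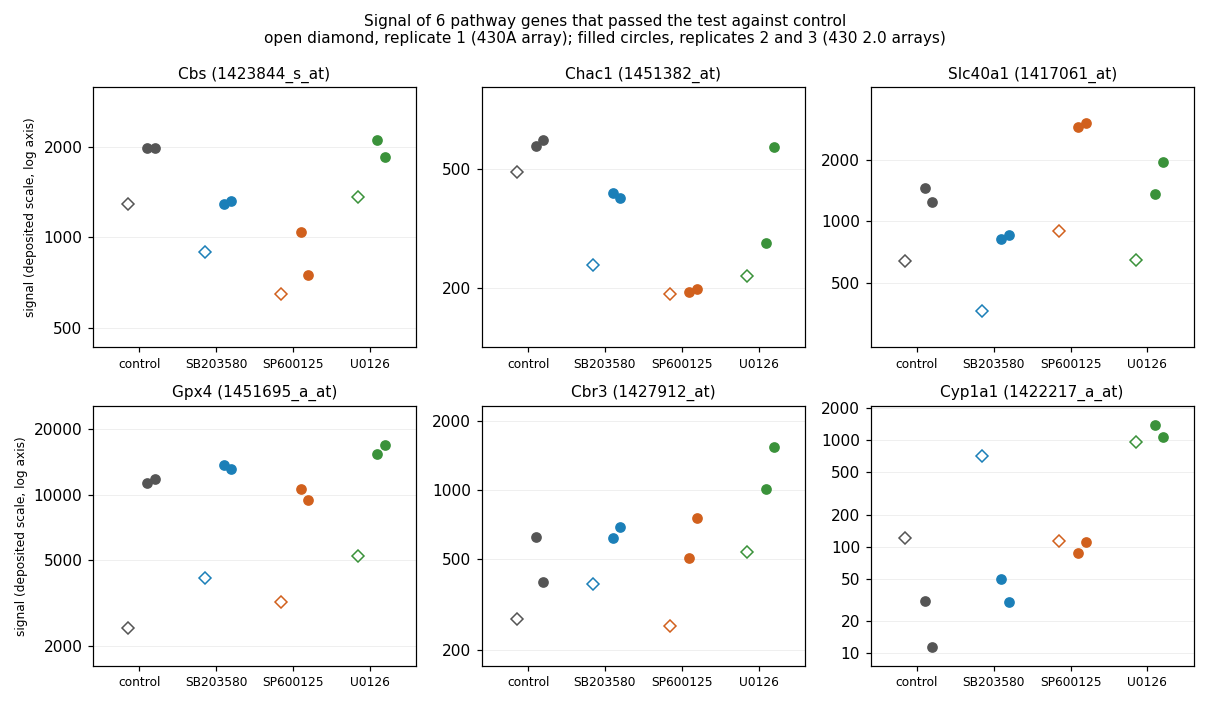
Signal on the deposited scale (log axis) in the 12 samples of 6 genes of the pathway lists that passed against control, with open diamonds for replicate 1 on 430A arrays and filled circles for replicates 2 and 3 on 430 2.0 arrays. The SP600125 samples are the lowest of each array type for Cbs and Chac1 and the highest for Slc40a1, and the U0126 samples are the highest for Gpx4, Cbr3 and Cyp1a1.

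**Figure D5:**
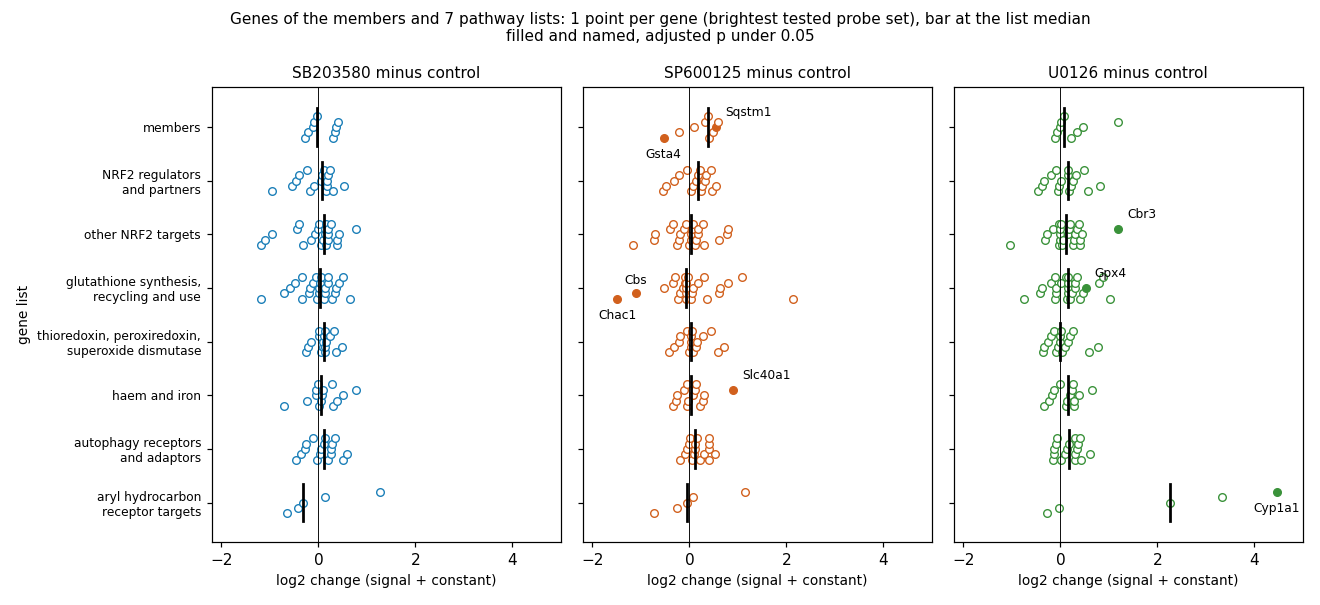
Log2 change against control of each tested gene of the defence genes and 7 pathway lists (1 point per gene, its brightest tested probe set; bar at the median; filled and named where the adjusted p was under 0.05). Filled points are Sqstm1, Gsta4, Cbs, Chac1 and Slc40a1 with SP600125 and Cbr3, Gpx4 and Cyp1a1 with U0126. The median of the defence genes with SP600125 is 0.37, with replicate medians of 0.65 on the older arrays and 0.16 and 0.17 on the newer.

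The genes whose 12 values came nearest to those of Sqstm1, by root mean square distance in log2 after the control mean of each array type was taken off, were Chdh (0.11), Virma (0.12) and Rabgef1 (0.13). Nearest to Gsta4 were Nup153 (0.09), Dhrs1 (0.10) and L1td1 (0.12). The members themselves lay 0.35 (Sqstm1) and 0.32 (Gsta4) from a flat pattern. None of these 6 genes passed against control under any of the 3 inhibitors.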

How the data were processed

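The authors deposited 1 signal intensity per probe set on a linear scale, with each array scaled to a mean of 500 after 2 percent was trimmed at each end, as checked on all 16 arrays. Which software made them is not given in the sources used here. By label number, the 430A and 430B arrays of a replicate were joined into 12 samples. Before log2 was taken, a constant of 12.6 went onto each signal; it is the 20th percentile of signals on the 430 2.0 arrays. Probe sets were tested if their mean on the 430 2.0 arrays reached the 40th percentile, 42.9, which left 27022. limma 3.58.1 in R 4.3.3 fitted the 4 groups with array type (and so labelling assay) as a block and an intensity trend; residual degrees of freedom were 7 and prior ones 9.71 on the median. Two-sided p-values were adjusted by Benjamini-Hochberg over every tested probe set and called under 0.05; errors are standard errors and intervals 95 percent. The number of arrays limits the precision.

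Array annotation named 1 gene for 34945 probe sets, several for 932 and none for 9160. The defence genes and lists were chosen with earlier results of these data known. Besides these genes, up to 4 called genes of each list were to be named, the largest changes first, or the 2 with the largest moderated statistic where none was called; Gpx4 was added after its values were seen. Alternatives covered the constant, the filter, scaling, array types, the trend, the groups fitted, the replicate block and each sample left out.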

Additional observations from a re-analysis of the deposited data

Results flagged for a closer look

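The differences listed here passed limma's test of 1 inhibitor against another, on the log2 scale, adjusted over all tested probe sets; they share samples and are given as values. Gsta4 was lower with SP600125 than with U0126 (-0.60).

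Among NRF2 regulators and targets, Trp53inp1, a p53-induced autophagy gene, was lower with SB203580 than with SP600125 on 1416926_at (-1.01). On the same probe set it was higher with SP600125 than with U0126 (0.88), and no other Trp53inp1 probe set passed. Gsta2, a glutathione transferase gene, was lower than with U0126 under SB203580 (-1.51) and SP600125 (-1.13); Gsta1 and Gsta2 are near-identical, so this gene's calls are uncertain. Cbr3 was lower with SP600125 than with U0126 (-1.02), and Ephx1, which hydrolyses epoxides, was higher (0.93).

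Among glutathione genes, the secreted peroxidase gene Gpx3 was lower with SB203580 than with SP600125 (-2.61), and Oplah, which recycles oxoproline to glutamate, was lower with SB203580 than with U0126 (-1.37). On 1423844_s_at, the only Cbs probe set that passed, Cbs was lower with SP600125 than with U0126 (-1.13). Gpx4 was lower with SP600125 than with U0126 on both of its called probe sets (-0.70 and -0.60), and on 1456193_x_at lower with SB203580 than with U0126 (-0.38).

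Txnip, which binds thioredoxin, was higher with SP600125 than with U0126 on 1415996_at (0.71), as was mitochondrial Sod2 on 1454976_at (0.52). No other probe set of Txnip or Sod2 passed. Slc40a1 was lower with SB203580 than with SP600125 on both probe sets (-1.62 and -1.18). On 1417061_at alone it passed as lower with SB203580 than with U0126 (-0.90) and as higher with SP600125 than with U0126 (0.72). Map1lc3b, an autophagosome gene, exceeded its U0126 level with SB203580 (0.58) and SP600125 (0.54) on 1 of its probe sets.

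Of 5 aryl hydrocarbon receptor targets tested, 2 passed as lower with SB203580 than with U0126, and 3 as lower with SP600125 than with U0126. These were Cyp1a1 with SB203580 (-3.20) and SP600125 (-3.30), Cyp1b1 with SB203580 (-3.76) and SP600125 (-4.05), and Ahrr with SP600125 (-2.32). Passed or not, all 5 had negative differences with SB203580, while 3 were negative and 2 positive with SP600125. Signals of Cyp1b1 outside the U0126 group fell as low as 1.5, under the constant of 12.6 added before the log, so the size of its differences is poorly fixed: over the alternatives, which include other constants, they ran from -5.22 to -2.65 and from -5.40 to -2.82, and Ahrr from -2.74 to -1.65. Trp53inp1 in SB203580 against SP600125 passed under 17 of 22 alternatives, Cbs in SP600125 against U0126 and Slc40a1 (1417061_at) in SB203580 against SP600125 under all 22. Fewer than 11 of 22 alternatives kept the calls of Map1lc3b (6 and 7), Gpx4 on 1456193_x_at in SB203580 against U0126 (6), Ephx1 (7), Gsta2 in SP600125 against U0126 (8), Txnip (9) and Sod2 (10). Gpx3 was among the calls lost on the 430 2.0 arrays alone.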

How the results depend on the processing

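The SP600125 count of 2 called probe sets became 1 with a constant of 2 (Sqstm1) or quantile normalization (Gsta4), and 0 with no filter, median centring, the 430 2.0 arrays alone, no intensity trend or only the 2 groups compared. It stayed 2 with a constant of 50 and a filter at the 60th percentile, and ranged from 0 to 2 when a sample was left out. The count of 1 for SP600125 against U0126 became 0 with median centring, the 430 2.0 arrays alone or no intensity trend, and ranged from 0 to 2 over the omissions. Counts of the other 4 comparisons stayed 0 throughout. The median of the genes with U0126 was -0.078 with median centring and 0.22 when probe sets were averaged per gene, against 0.07, and ranged from 0.030 to 0.24 over the omissions; with SB203580 it ranged from -0.132 to 0.180. The cause was not tested. No called direction reversed. Replicates share numbers. On the newer arrays, replicate 2 minus replicate 3 differences of the groups had weak positive correlations with each other, 0.02 to 0.09. Replicate 1 could not be checked in this way, as each group has only 1 sample on the older arrays. With the replicate block the counts stayed 2 and 1. Median centring moved all probe sets with U0126 from 0.06 to -0.11 on the median. Signal near background limits Slc7a11 and the dim probe sets.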
